A study of Homo sapiens with 6 samples.

Results

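Interleukins and colony stimulating factors are small secreted proteins through which cells signal to their neighbours and to immune cells. The 9 genes described here are the rows named *IL6*, *IL11*, *LIF*, *IL1A*, *IL1B*, *IL18*, *IL24*, *CSF1* and *CSF2* among the 58735 genes of the deposited expression table. Their transcripts were measured by RNA-sequencing in MDA-MB-231, an established line of human basal-like breast cancer cells. The cells carried a non-targeting shRNA (shSCR in the study, SCR in the sample names, where the genotype is given as WT). Of the 6 libraries, 3 came from unirradiated cells (0 Gy) and 3 from cells that had received 10 Gy of gamma rays from a 137Cs source 24 h earlier. The comparison asked how the steady-state transcript levels of these genes differed 24 h after irradiation. The shRNA was shared by both groups, and cells without it were not analysed here. The labels do not say whether the libraries of a dose came from separate cultures, so the p-values measure the spread between these libraries, which may be technical. RNA was measured and secreted protein was not.

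Levels are FPKM, fragments per kilobase of gene scaled to a depth set for each library. Genes of different length can therefore be set side by side. The values correspond to between 15643641 and 28861781 reads on genes per library. The implied depth was 0.973, 0.983 and 0.991 times these reads at 0 Gy and 1.036, 1.039 and 1.028 times at 10 Gy. A higher factor lowers every FPKM value of a library. Its part in the split of calls was not tested, and other scalings are given below. Libraries of the same dose had correlations of at least 0.992 across genes, and libraries of different doses of at most 0.989. A change is the difference in mean log2(FPKM + 1), 10 Gy minus 0 Gy, and a gene was called changed at a Benjamini-Hochberg adjusted p under 0.05 with limma over 12128 genes. In this contrast 35.6% of all genes tested were called, 11.9% as higher and 23.7% as lower, and for 51.9% the 3 values at 10 Gy did not overlap the 3 at 0 Gy. The median gene changed by -0.04 on this scale. Markers of this mesenchymal, hormone receptor-negative line were as known for it, with *VIM* at 247 to 312 FPKM (called lower at 10 Gy, -0.26), *PGR* at 0 and *ESR1* at no more than 0.017 FPKM. Of 16 leukocyte and stromal markers, 4 had a mean of at least 1 FPKM, and *CD3D*, *CD3E* and *TYROBP* were listed at 0 in every library. Their summed level was 7.73 to 8.71 FPKM at 0 Gy and 10.4 to 11.3 FPKM at 10 Gy, with *COL1A1* (0.37) and *PECAM1* (0.40) called higher and *PTPRC*, the common leukocyte marker, at no more than 0.0071 FPKM. *CD14*, the highest leukocyte marker, was at 2.56, 1.31 and 2.01 FPKM at 0 Gy and 2.00, 3.05 and 2.38 FPKM at 10 Gy (0.24, adjusted p = 0.30), and *LYZ* had a mean of 0.0422 and 0.114 FPKM. The part of these markers in the changes below was not tested, and fewer producing cells cannot be told apart from less RNA per cell in bulk libraries.

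The 9 genes are described here in 4 groups, of which the colony stimulating factors are grouped by name and not by a shared receptor. IL6, IL11 and LIF signal through the shared receptor chain gp130, encoded by *IL6ST*, and the kinases and STAT factors attached to it. IL1A, IL1B and IL18 belong to the IL-1 family. They lack a classical signal peptide and signal through the adaptor MYD88, and IL1B and IL18 are cleaved from precursors by inflammasome caspases. IL24 is a member of the IL-10 family. CSF1 drives the survival of macrophages, and CSF2 (GM-CSF) the growth of granulocytes and macrophages. Transcription of several of these genes is known to respond to NF-kB, AP-1 and C/EBP factors, and cells with damaged DNA are known to secrete members of this group.

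To show where such factors could meet these genes, bases upstream of the RefSeq transcription start site are printed for 3 genes that were called changed and for *IL6*, a textbook NF-kB target. The sequences are from GRCh38.p14, 5′ to 3′ on the strand of the gene, with motif matches in capitals, and stop before any annotated exon. *IL11* is shown for chr19:55370464-55370713 (minus strand), *IL1B* for chr2:112836904-112837029 (minus strand), *CSF2* for chr5:132073539-132073788 (plus strand) and *IL6* for chr7:22726950-22727146 (plus strand).
IL11: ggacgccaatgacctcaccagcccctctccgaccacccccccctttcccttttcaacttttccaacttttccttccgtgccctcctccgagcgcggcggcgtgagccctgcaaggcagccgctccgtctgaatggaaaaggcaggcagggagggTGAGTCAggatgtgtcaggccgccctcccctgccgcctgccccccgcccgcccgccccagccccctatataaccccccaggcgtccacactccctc
IL1B: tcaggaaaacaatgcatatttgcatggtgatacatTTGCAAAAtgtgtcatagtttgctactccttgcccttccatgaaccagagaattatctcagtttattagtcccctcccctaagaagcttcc
CSF2: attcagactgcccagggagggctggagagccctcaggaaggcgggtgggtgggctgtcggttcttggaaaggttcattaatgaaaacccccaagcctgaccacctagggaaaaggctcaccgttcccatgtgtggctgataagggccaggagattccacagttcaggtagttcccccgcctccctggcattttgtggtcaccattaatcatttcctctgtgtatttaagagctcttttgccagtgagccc
IL6: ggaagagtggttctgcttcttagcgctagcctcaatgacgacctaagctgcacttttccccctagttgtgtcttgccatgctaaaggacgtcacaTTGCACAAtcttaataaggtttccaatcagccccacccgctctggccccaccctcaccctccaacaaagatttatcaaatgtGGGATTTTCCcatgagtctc
The *IL11* bases hold an AP-1 match at positions -96 to -90, counted from the start site. The *IL1B* bases hold a C/EBP match at -215 to -208. In *IL6* the capitals are a C/EBP match at -155 to -148 and an NF-kB match at -73 to -64. None of the motifs searched was found in the *CSF2* window, which says only that those letters are not there. The search covered both strands of the whole 250 bases before each start site, with any exon bases that are not printed, for NF-kB, AP-1 (TGACTCA), CRE (TGACGTCA), the TATA box (TATAAA) and C/EBP (TTGCNNAA), and no match overlapped another. These were found in 9.96%, 4.20%, 1.65%, 10.7% and 9.05% of 35116 RefSeq promoter windows. Of the 9 genes, 6 were matched to a window and *LIF*, *IL18* and *CSF1* were not. *IL1A*, with 2 start sites, held a TATA box match at -239 of the upstream site, and its AP-1 matches lay inside the annotated gene, in bases that the trimming removes. *IL24* held none. A match describes the letters only and is not a measured binding site.

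At 0 Gy the most abundant of the 9 transcripts was *CSF2* (150.8 ± 23.9 FPKM, SD, n = 3), the gene of rank 218 in the table. *CSF1* followed at 103 ± 4.35 FPKM and *IL11* at 75.0 ± 4.11 FPKM. *LIF* (31.3 FPKM), *IL6* (20.6 FPKM) and *IL18* (7.27 FPKM) were in the middle. *IL1A* (3.21 FPKM) and *IL1B* (3.13 FPKM) had overlapping ranges at 0 Gy, and *IL24* was lowest at 1.49 FPKM. After 10 Gy the order changed in 2 places. *IL11* (106 FPKM) stood above *CSF1* (76.8 FPKM), and *IL1B* (4.52 FPKM) above *IL1A* (3.15 FPKM). No neighbours in the order at 10 Gy had overlapping ranges.

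**Figure D1:**
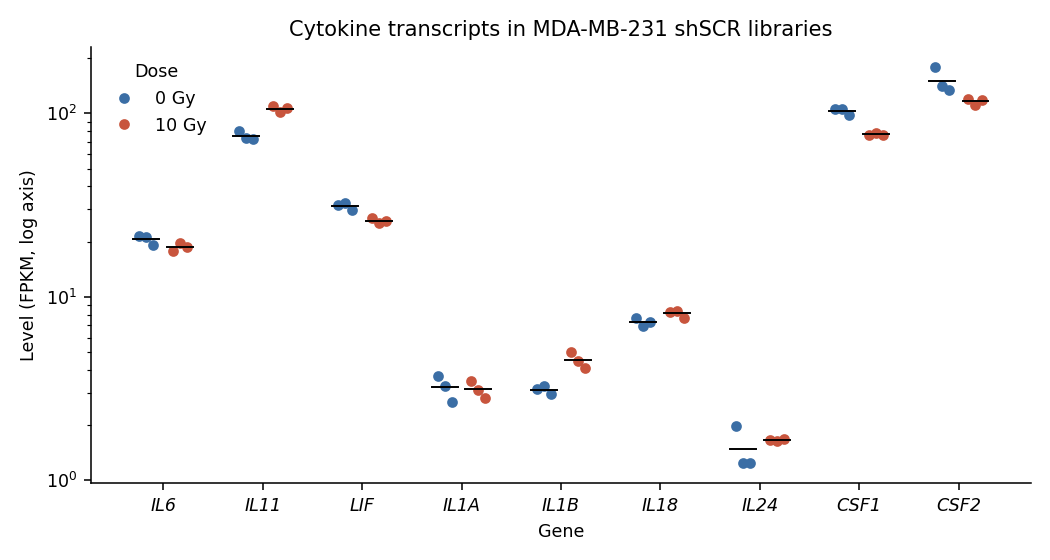
Level of each cytokine gene in every library, in FPKM on a log axis, with 0 Gy in blue, 10 Gy in red and a bar at each group mean (n = 3). *IL11* and *IL1B* lie higher and *LIF*, *CSF1* and *CSF2* lower at 10 Gy without overlap, and the 0 Gy values of *CSF2* and *IL24* are spread by their highest library.

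All 9 genes passed the filter of a mean of 1 FPKM. Of these, 5 were called, with *IL11* and *IL1B* higher and *LIF*, *CSF1* and *CSF2* lower, beside the 35.6% called among all genes. For 6 of the 9 (the 5 called and *IL18*) the groups did not overlap, beside 51.9% of all genes. The median change of the 9 was -0.02 and that of all genes -0.04. *IL11*, *IL1B* and *CSF1*, 3 of the 9, were called and moved by at least 1.3-fold on this scale, as did 700 of the 12128 genes tested.

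Among the gp130 cytokines the 3 genes did not move together. *IL11* (ENSG00000095752, chr19:55364389-55370463, minus strand), which encodes a cytokine of stromal and epithelial cells, had levels of 79.7, 73.2 and 72.1 FPKM at 0 Gy and 110.1, 101 and 106 FPKM at 10 Gy. All irradiated libraries were above all controls. The change was 0.49 (SE 0.05, 95% confidence interval 0.38 to 0.61, adjusted p = 0.00086), and the mean was 1.41 times the control mean. *LIF* (ENSG00000128342, chr22:30240447-30246851, minus strand), the leukemia inhibitory factor, had levels of 31.7, 32.3 and 29.8 FPKM at 0 Gy and 26.9, 25.2 and 25.8 FPKM at 10 Gy. Again the groups did not overlap, here with the irradiated libraries below. It fell by 0.26 on the log2 scale (SE 0.04, adjusted p = 0.0037). *LIF* overlaps antisense genes, of which AC004264.1 had a mean of 1.08 FPKM at 0 Gy and 1.61 FPKM at 10 Gy. Whether reads were counted by strand is not given in the sources used here, so reads of such a pair may not be separated. *IL6* (ENSG00000136244, chr7:22725884-22732002, plus strand), the acute phase cytokine, had levels of 21.5, 21.2 and 19.2 FPKM at 0 Gy and 17.7, 19.6 and 18.7 FPKM at 10 Gy. The lowest control lay within the irradiated range. Its change was -0.14 (SE 0.05, interval -0.26 to -0.01), which did not pass over all genes (adjusted p = 0.088). Without 0 Gy replicate 3 it was -0.18 and passed (adjusted p = 0.036, range over 18 alternatives 0.036 to 0.85).

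In the IL-1 family *IL1B* rose and the other 2 genes were not called. *IL1B* (ENSG00000125538, chr2:112829751-112836903, minus strand), the secreted ligand of the IL-1 receptor, had levels of 3.17, 3.26 and 2.95 FPKM at 0 Gy and 4.99, 4.46 and 4.10 FPKM at 10 Gy. These rest on 155 to 462 reads per library. All irradiated libraries were higher, with a change of 0.42 (SE 0.07, interval 0.26 to 0.58, adjusted p = 0.0043) and a mean of 1.45 times the control mean. *IL1A* (ENSG00000115008, chr2:112773915-112784590, minus strand), whose precursor is already active, had levels of 3.69, 3.28 and 2.67 FPKM at 0 Gy and 3.50, 3.12 and 2.83 FPKM at 10 Gy. The irradiated values lay inside the control range. The change was -0.02 (interval -0.25 to 0.22, adjusted p = 0.90), with a positive sign under TPM (0.10), upper quartile (0.05) and median-of-ratios (0.02) scaling. *IL18* (ENSG00000150782, chr11:112143251-112164117, minus strand), an inducer of interferon gamma in lymphocytes, had levels of 7.64, 6.93 and 7.26 FPKM at 0 Gy and 8.31, 8.38 and 7.68 FPKM at 10 Gy. The groups were separated by a narrow gap. Its change of 0.14 (SE 0.05, interval 0.03 to 0.26) did not pass (adjusted p = 0.061, range over 18 alternatives 0.010 to 0.18). It passed without 0 Gy replicate 1 (0.17, adjusted p = 0.040), without 10 Gy replicate 3 (0.18, adjusted p = 0.0497) and under each of the 3 other scalings. With protein-coding genes alone it passed too (adjusted p = 0.041).

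*IL24* (ENSG00000162892, chr1:206897443-206904139, plus strand), known from its growth-inhibiting effect in tumour cells, was near the filter. Its levels were 1.99, 1.25 and 1.24 FPKM at 0 Gy and 1.66, 1.63 and 1.68 FPKM at 10 Gy, from 38 to 98 reads. The irradiated libraries fell between the highest control and the other two. The change was 0.11 (SE 0.12, interval -0.17 to 0.38, adjusted p = 0.51). Without 0 Gy replicate 1 it was 0.24 and passed (adjusted p = 0.033, range over 18 alternatives 0.033 to 0.86). In that library genes of 1000 to 2000 bases, the length class of *IL24*, were higher than in the other 2 controls by a median of 0.11 on the log2 scale, and the part of this in the value was not tested.

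Both colony stimulating factors fell. *CSF1* (ENSG00000184371, chr1:109910242-109930992, plus strand) had levels of 105, 106 and 97.9 FPKM at 0 Gy and 76.3, 77.7 and 76.3 FPKM at 10 Gy. The irradiated libraries were nearly identical and all below the controls. It fell by 0.42 on the log2 scale (SE 0.04, interval -0.51 to -0.33, adjusted p = 0.0007), to 0.746 times the control mean. *CSF2* (ENSG00000164400, chr5:132073790-132076170, plus strand), a gene of 787 bases with a single annotated transcript, had levels of 178, 140 and 134 FPKM at 0 Gy and 119, 111 and 118 FPKM at 10 Gy. Control replicate 1 was far above the other controls, and all irradiated libraries were below all controls. It fell by 0.37 on the log2 scale (SE 0.10, interval -0.60 to -0.13, adjusted p = 0.028), to 0.769 times the control mean. The call was lost without 10 Gy replicate 1 (-0.39, adjusted p = 0.064), replicate 2 (-0.33, adjusted p = 0.093) or replicate 3 (-0.38, adjusted p = 0.065), and the adjusted p ranged from 0.0064 to 0.11 over 18 alternatives. Without 0 Gy replicate 1 the change was -0.24 and stayed past the threshold. *IL11*, *LIF*, *IL1B* and *CSF1* were past it in all 18 alternatives, with the same sign.

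The summed FPKM of all genes was 269611 to 278380 at 0 Gy and 246920 to 254918 at 10 Gy, so rescaling to TPM, which sets this sum equal in every library, moved the change of the median gene by 0.12, from -0.04 to 0.08. Of all genes called, 33.4% were higher with FPKM and 74.5% with TPM, 63.9% with upper quartile and 48.7% with median-of-ratios scaling. Relative to the median gene, *IL11* was at 0.53 with FPKM and 0.55 with TPM, and *IL1B* at 0.46 and 0.54. *CSF1* was at -0.38 and -0.37, *CSF2* at -0.33 and -0.32 and *LIF* at -0.22 with both. *IL18* (0.18 and 0.20), *IL24* (0.14 and 0.19), *IL6* (-0.10 and -0.09) and *IL1A* (0.02 with both) were nearer to it. With TPM, 5 of the 9 were called, 3 higher and 2 lower, with *IL18* in and *CSF2* out. The dose contrast also ran with gene length. Its median was -0.0040 for genes up to 1000 bases (the class of *CSF2*), -0.13 from 1000 to 2000 (*IL24*), -0.09 from 2000 to 3000 (*IL6*, *IL11*, *IL1A* and *IL18*) and -0.07 from 3000 to 5000 (*LIF* and *IL1B*). It was -0.02 from 5000 to 10000 bases (*CSF1*) and 0.05 above that. The part of gene length in the changes of these genes was not tested.

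**Figure D2:**
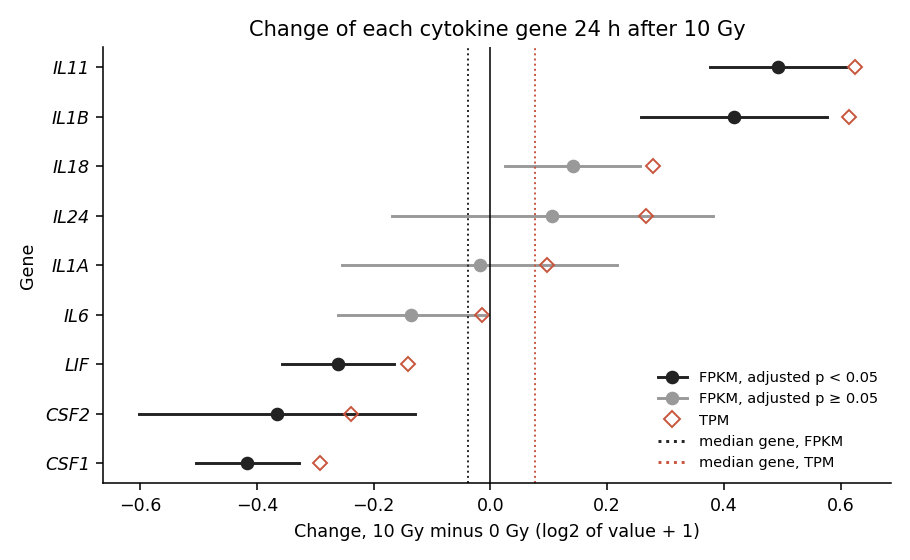
Change of each gene, 10 Gy minus 0 Gy, on the log2(value + 1) scale, with 95% confidence intervals for FPKM (filled, black where the adjusted p is under 0.05) and TPM values as open diamonds. All diamonds lie to the right of their FPKM points, and the median gene (dotted) moves from -0.04 to 0.08, while the signs of the other genes hold and that of *IL1A* flips.

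Ratios of 2 genes within a library do not depend on the scaling of that library. They were chosen after the values were seen and describe the balance between ligands. The ratio of *IL11* to *LIF* was 2.51, 2.27 and 2.42 at 0 Gy and 4.10, 4.03 and 4.12 at 10 Gy. The ratio of *IL11* to *IL6* was 3.64 ± 0.161 and 5.69 ± 0.530 (SD, n = 3), and that of *IL1B* to *IL1A* was 0.986 ± 0.123 and 1.44 ± 0.0133. For *IL11* to *CSF1* it was 0.729 ± 0.0341 and 1.38 ± 0.0709. In each of these the groups did not overlap, and a two-sided exact permutation test gave p = 0.1, the smallest that 3 against 3 allows. For *IL11* to *LIF* and *IL11* to *CSF1* this outcome was fixed by the levels given above. *IL11* was higher, and *LIF* and *CSF1* were lower, in every irradiated library than in every control. The tests of those ratios therefore add nothing to the levels. The ratio of *CSF2* to *CSF1* was 1.46 ± 0.203 and 1.51 ± 0.0729, with overlapping groups (exact permutation p = 0.8). The summed level of the 9 genes was 396 ± 33.5 FPKM at 0 Gy and 361 ± 8.25 FPKM at 10 Gy (exact permutation p = 0.2). Within that sum the share of *IL11* was 19.0% ± 0.606 and 29.4% ± 0.564, that of *CSF2* 38.0% ± 2.81 and 32.1% ± 0.570, and that of *CSF1* 26.1% ± 1.60 and 21.3% ± 0.697.

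**Figure D3:**
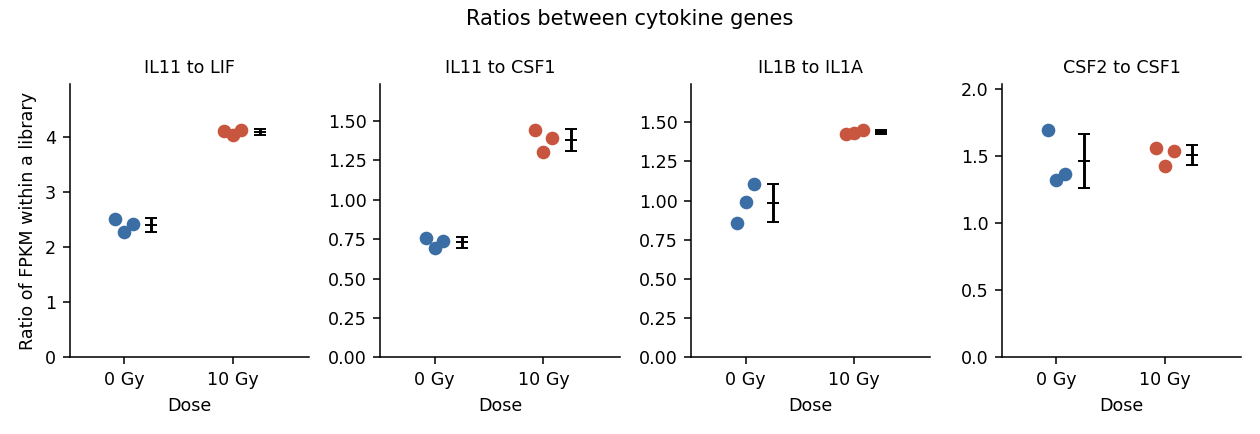
Ratio of the FPKM of 2 genes within each library, for 3 libraries at 0 Gy (blue) and 3 at 10 Gy (red), with the mean and SD beside each group and axes from 0. The ratios of *IL11* to *LIF*, *IL11* to *CSF1* and *IL1B* to *IL1A* are higher at 10 Gy without overlap, and that of *CSF2* to *CSF1* overlaps.

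The other genes of these pathways were taken from 9 lists. Of 121 genes beside the 9, 66 were tested, of which 9 were called higher, 13 lower and 44 not at all, with a median change of 0.01. Of all genes tested, 35.6% were called, 11.9% higher and 23.7% lower, with a median of -0.04. With TPM the split of the list genes was 21 higher and 9 lower, where 74.5% of all genes called were higher. The 22 called genes are named below, and those whose call was lost when a library was left out are given with that value.

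For the gp130 cytokines, the shared receptor chain *IL6ST* was well expressed, at 44.4, 50.9 and 47.7 FPKM at 0 Gy and 44.0, 44.8 and 45.3 FPKM at 10 Gy. Its change of -0.09 was not called (adjusted p = 0.20), passed without 0 Gy replicate 1 (-0.14, adjusted p = 0.028, range over 18 alternatives up to 0.99) and had a positive sign under TPM (0.04) and upper quartile (0.0014) scaling. The LIF receptor *LIFR* was at 4.56 and 5.11 FPKM (0.14, adjusted p = 0.070), and passed without 0 Gy replicate 2 (0.18, adjusted p = 0.033) and under the 3 other scalings. The IL6 receptor *IL6R* was at 1.40 and 1.14 FPKM (-0.16, adjusted p = 0.11), and passed in 2 of 18 alternatives (adjusted p 0.040 to 0.39). *IL11RA*, the receptor of IL11, had 0.604, 0.609 and 0.724 FPKM at 0 Gy and 0.908, 0.795 and 1.10 FPKM at 10 Gy, below the filter and without a test. The oncostatin M receptor *OSMR* was at 20.4 and 22.7 FPKM and its ligand *OSM* was listed at 0 in every library. Of the 7 other cytokines and receptors tested, only *CLCF1*, a further gp130 ligand, was called, beside 35.6% called among all genes. *CLCF1* had 25.1 ± 0.0656 FPKM at 0 Gy and 18.7 ± 0.496 FPKM at 10 Gy (-0.41, adjusted p = 0.0005).

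Downstream of gp130, 5 of 15 tested signalling genes were called, 3 higher and 2 lower, beside 35.6% called among all genes. *BCL3*, an NF-kB cofactor and STAT3 target, rose from 14.3 ± 0.635 to 19.1 ± 0.634 FPKM (0.40, adjusted p = 0.0010). *SOCS3*, the feedback inhibitor of gp130, had 45.3, 42.8 and 41.7 FPKM at 0 Gy and fell to 35.8, 33.1 and 33.3 FPKM at 10 Gy (-0.34, adjusted p = 0.0021). *PIAS3*, an inhibitor of STAT3, was higher by 0.17, a call lost without 10 Gy replicate 2 (0.16, adjusted p = 0.060). The kinase *JAK1* was higher by 0.12, lost in 5 of the 6 fits that left out a library (adjusted p 0.053 to 0.12). The phosphatase *PTPN2* was lower by 0.13, lost in all 6 (adjusted p 0.063 to 0.14) and under the 3 other scalings. *STAT3* itself was at 25.2 and 25.7 FPKM (0.03, adjusted p = 0.59).

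Around the IL-1 family, the receptor and adaptor list held 2 genes called higher and 1 called lower of 8 tested. Among all genes 35.6% were called. *MYD88* rose from 9.98 ± 0.539 to 12.3 ± 0.912 FPKM (0.28, adjusted p = 0.011). The kinase *IRAK1*, which acts below it, fell from 71.9 ± 1.64 to 55.0 ± 1.43 FPKM (-0.38, adjusted p = 0.0006). The receptor *IL1R1* was at 1.06 ± 0.0864 FPKM at 0 Gy and 1.52 ± 0.188 FPKM at 10 Gy (0.29, adjusted p = 0.029), a call lost without 0 Gy replicate 1 (0.26, adjusted p = 0.071), 0 Gy replicate 3 (0.29, 0.063), 10 Gy replicate 2 (0.25, 0.10) or 10 Gy replicate 3 (0.27, 0.089). Its partner *IL1RAP* had a mean of 0.973 and 0.877 FPKM and was not tested. The decoy receptor *IL1R2* and the IL18 receptor chain *IL18R1* had 2 and 3 reads over all libraries, and *IL18RAP* was listed at 0. *IL18BP*, a soluble inhibitor of IL18, was at 1.01, 1.58 and 1.26 FPKM at 0 Gy and 2.04, 2.15 and 1.91 FPKM at 10 Gy (0.42, adjusted p = 0.016), lost without 10 Gy replicate 1 (0.42, adjusted p = 0.053) or replicate 2 (0.39, adjusted p = 0.060). The IL-1 receptor antagonist *IL1RN* was at no more than 0.0168 FPKM.

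Of 17 tested genes on the list for processing and release, 3 were called higher and 5 lower, beside 35.6% called among all genes. The inflammasome adaptor *PYCARD* had 1.81, 1.61 and 1.25 FPKM at 0 Gy and 2.44, 2.47 and 2.75 FPKM at 10 Gy (0.48, adjusted p = 0.0074). *CASP4*, a caspase that senses bacterial lipopolysaccharide, had 4.25, 4.45 and 3.97 FPKM at 0 Gy and 2.93, 2.79 and 3.16 FPKM at 10 Gy (-0.40, adjusted p = 0.0028). *CASP1*, which cleaves the IL1B and IL18 precursors, was at 1.15 and 1.18 FPKM (0.02, adjusted p = 0.89), and its sign turned without 10 Gy replicate 1 (-0.03). The pore proteins *GSDME* (-0.34, adjusted p = 0.0053) and *GSDMD* (-0.20, adjusted p = 0.026) were lower. Calpains are proteases of the IL1A precursor, and their subunits *CAPN2* (-0.24, adjusted p = 0.0034) and *CAPNS1* (-0.17, adjusted p = 0.023) were lower too. The subunit *CAPN1* went the other way, at 26.4 and 28.1 FPKM, without overlap of the groups, and was not called (0.08, adjusted p = 0.092). The calls of *GSDMD* (adjusted p 0.066 to 0.082) and *CAPNS1* (0.056 to 0.083) were lost when any of the 3 irradiated libraries was left out. Under TPM and upper quartile scaling both calls were lost (adjusted p = 0.23 and 0.10 for *GSDMD*, 0.33 and 0.12 for *CAPNS1*), and under median-of-ratios scaling that of *GSDMD* (0.051). The sensor *NLRP1* was higher by 0.24, lost without 0 Gy replicate 1 (0.21, adjusted p = 0.055), 10 Gy replicate 1 (0.24, 0.072) or 10 Gy replicate 3 (0.20, 0.077). The protease *ADAM10* was higher by 0.12, lost in all 6 fits that left out a library (adjusted p 0.052 to 0.15).

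For the colony stimulating factors, the ligand *CSF3* (G-CSF) was at 86.4, 73.6 and 73.0 FPKM at 0 Gy and 70.0, 69.9 and 68.2 FPKM at 10 Gy. All irradiated libraries were below all controls, and the change of -0.16 did not pass (adjusted p = 0.098). Its 0 Gy replicate 1 was the highest library, as for *CSF2*, and without it the change was -0.08 (adjusted p = 0.056). With protein-coding genes alone it passed (adjusted p = 0.049, range over 18 alternatives 0.049 to 0.71). The CSF2 receptor subunit *CSF2RA* was at 5.18 and 4.86 FPKM (-0.08, adjusted p = 0.29), with a positive sign under TPM (0.03) and upper quartile (0.00024) scaling. The signalling subunit *CSF2RB* was listed at 0 in every library, and the CSF1 receptor *CSF1R* was at 0.323 to 0.568 FPKM.

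Cytokine mRNAs are known to be kept short-lived by proteins that bind their AU-rich or stem-loop elements. The list held 13 genes of proteins that act on such mRNAs, and not all of them shorten the life of an mRNA. All 13 were tested. With limma 4 were called lower and none higher, beside 23.7% lower and 11.9% higher of all genes tested. At an unadjusted p under 0.05 the counts were 5 lower and 2 higher. *HNRNPD* (AUF1) fell from 83.4 ± 2.06 to 65.2 ± 1.26 FPKM (-0.35, adjusted p = 0.0007). *TIAL1* (-0.27, adjusted p = 0.0012), *ZFP36L1* (-0.25, adjusted p = 0.0011) and *ZC3H12A* (-0.23, adjusted p = 0.0059), the ribonuclease Regnase-1 that acts on *IL6* mRNA, were lower too, the last not called under TPM scaling (-0.11, adjusted p = 0.077). The other 9 ranged around 0, with *ZFP36* at 7.22 and 7.93 FPKM (0.12, adjusted p = 0.20).

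**Figure D4:**
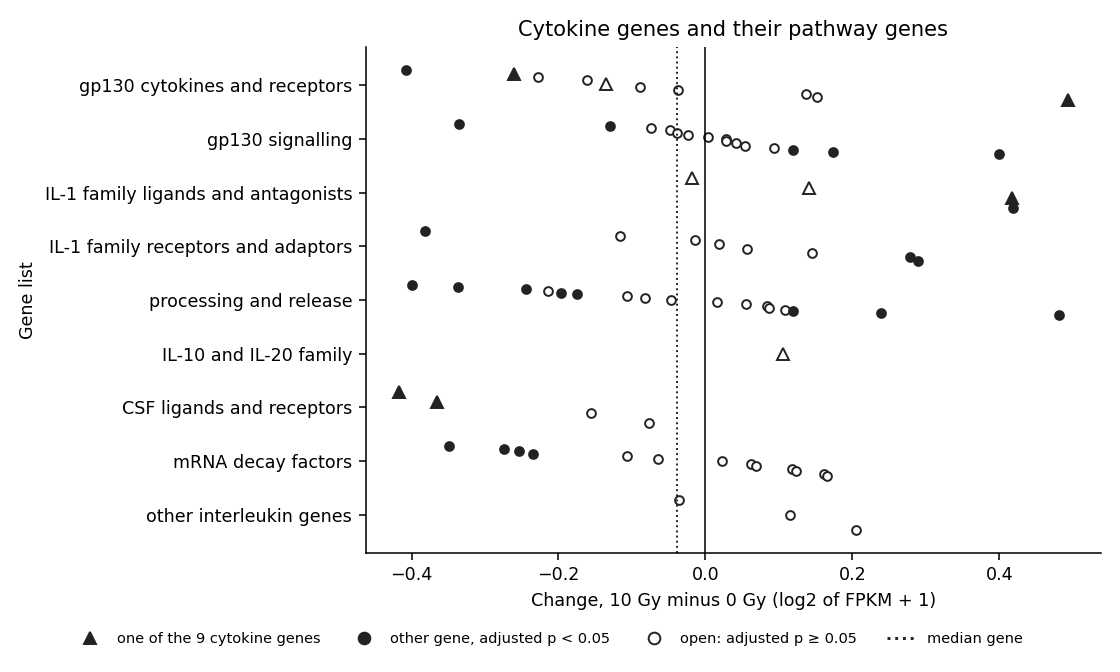
Change of the 9 cytokine genes (triangles) and of the tested genes in 9 pathway lists (circles), 10 Gy minus 0 Gy in log2(FPKM + 1), with filled symbols for an adjusted p under 0.05 and vertical jitter only to separate points. The called genes lie on both sides of 0 in the signalling, receptor and processing lists. The 4 called in the mRNA decay list are lower, where 23.7% of all genes tested were called lower.

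Profiles across the 6 libraries were compared by the root mean square difference of log2(FPKM + 1) after removing each gene's own mean, as a description over 6 libraries that share depth and dose. The protein-coding genes nearest to *IL11* were *KLHDC8B* (0.031), *ATOH8* (0.035) and *ARL6IP1* (0.037). Nearest to *IL1B* were *UCN2* (0.036), *GYS1* (0.039) and *REEP6* (0.048), and to *LIF* were *XRCC5* (0.0069), *HSPA8* (0.016) and *APEX2* (0.018). *CSF1* was followed most closely by *TOE1* (0.025), *SLC5A6* (0.027) and *FAM111A* (0.027), and *CSF2* by *DDX28* (0.044), *KYAT3* (0.049) and *POLR2I* (0.049). For the genes not called, the nearest were *ATP6V1D*, *RBM7* and *ACAT1* to *IL6*, *MSRB2*, *FBXO4* and *NAGLU* to *IL1A*, *C16orf58*, *DIP2C* and *AMIGO1* to *IL18*, and *ID3*, *TRADD* and *NMB* to *IL24*.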

How the data were processed

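The 6 MDA-MB-231 RNA-sequencing libraries were grouped by the treatment in the labels. The authors deposited FPKM values for genes of GRCh38, made by a sequencing provider from polyA libraries and paired-end reads. The submitters' processing notes name HISAT2 and GRCh38, and the counting program is not given in the sources used here. The lengths in the table equal the exon bases of GENCODE 29 for all 9 genes. Reads recovered from FPKM, length and implied depth were whole within 0.05 reads and served for depth and the reads behind named genes. Counting error is therefore largest for *IL24*.

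Genes whose mean over the 6 libraries reached 1 FPKM (12128) entered a limma fit (version 3.58.1, R 4.3.3) of log2(FPKM + 1), moderated by eBayes with a trend on mean intensity. This scale understates the change of low genes. p-values were adjusted over all genes tested, and the procedure was tested on simulated data. There it recovered 95% of 100 genes changed 2-fold and 59% of 100 genes changed 1.3-fold. Far fewer genes were changed there than were called here, and all genes shared 1 dispersion, so these shares may not carry over. A gene not called may still have changed. Of the 9, those not called had 95% intervals of -0.17 to 0.38 (*IL24*), -0.25 to 0.22 (*IL1A*), -0.26 to -0.01 (*IL6*) and 0.03 to 0.26 (*IL18*). For ratios, two-sided exact permutation tests over the libraries were used.

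The 9 genes and the lists were chosen with earlier results of these data known. Named from the lists were all called genes, every receptor of the 9 and, for each of the 9, the 3 nearest profiles. A few further list genes were named after their values were seen. Alternatives covered the pseudocount, the filter, scaling (TPM, upper quartile, median of ratios), each library left out, a replicate block, eBayes settings, protein-coding genes alone and reads thinned to equal depth. Promoter sequences are from RefSeq (GRCh38.p14), 250 bases upstream of each start site, trimmed at exons. Python 3.11.15 with matplotlib 3.10.9 drew the figures.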

Additional observations from a re-analysis of the deposited data

How the results depend on the processing

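Over 18 alternatives *IL11*, *LIF*, *IL1B* and *CSF1* kept their direction and stayed past the threshold. *CSF2* stayed past it in 11 and fell short with no filter (adjusted p = 0.11), a filter of 0.1 FPKM (0.058), TPM (-0.24, 0.075) and upper quartile scaling (-0.27, 0.056), besides the 3 irradiated libraries left out in turn. *IL6* (adjusted p = 0.0495) and *IL18* (adjusted p = 0.041) passed with protein-coding genes alone. The sign of *IL1A* turned with TPM (0.098), upper quartile (0.052) and median-of-ratios scaling (0.018), and ranged from -0.11 to 0.062 when a library was left out. *IL6ST* turned with TPM (0.038) and upper quartile scaling (0.0014), *CSF2RA* likewise (0.035 and 0.00024), and *CASP1* without 10 Gy replicate 1 (-0.025), with a range up to 0.068 over the libraries left out. With no filter 14 pathway genes were called in place of 22, where more genes were tested. Leaving out a library gave 2660 to 3993 called genes in place of 4317, with 2705 without 10 Gy replicate 1 and 2660 without replicate 2, and 14 to 22 pathway genes, with 14 without 10 Gy replicate 2. The cause was not tested.

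Libraries with the same replicate number did not deviate together (correlations of -0.04, -0.03 and -0.10). Pairs with different numbers ranged from -0.05 to 0.09. Deviations from the mean of a group sum to 0, so these values cannot tell whether libraries of the same number were handled together. A replicate block left 3503 genes called, the same 5 of the 9 cytokine genes and 17 pathway genes, a block that also loses *JAK1*, *PTPN2*, *CAPNS1*, *NLRP1* and *ADAM10*. The lowest of the 9, *IL24*, rests on 38 to 98 reads per library.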

Other observations

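Most other interleukin genes were silent or near the floor. Of 22 further interleukin genes, 9 were listed at 0 in every library and 3 were tested, none of them called by limma, and 0 at an unadjusted p under 0.05. *IL23A*, a subunit of IL-23, was at 1.51 and 1.88 FPKM (0.20, adjusted p = 0.19). *EBI3*, a subunit of IL-27 and IL-35, was at 1.98 and 2.24 FPKM (0.11, adjusted p = 0.44), and *IL32* at 1.43 and 1.35 FPKM (-0.04, adjusted p = 0.84). None of the 10 other genes of the IL-10 and IL-20 family reached the filter. The receptor chains through which IL24 acts were low, with *IL20RA* at 0.321 and 0.381 FPKM, *IL20RB* at 0.396 and 0.536 FPKM and *IL22RA1* at 0.191 and 0.232 FPKM at 0 and 10 Gy.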
